A study of Homo sapiens with 8 samples.

Results

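The genes described here are the helicases whose symbols start with DDX or DHX followed by a digit. All rows of the deposited count table with such a symbol were taken, without DDX6, DDX58 and symbols with a hyphen, and the rule uses no measured value, although the family was picked with earlier results of these data known. This gave 46 of the 10105 genes of the table, 31 DDX and 15 DHX genes. They were measured in HEK293T cells, an established human embryonic kidney cell line, either WT or XRN1-null, with 2 biological replicates per genotype. XRN1 is the main cytoplasmic 5′-3′ exoribonuclease, and the methods describe a single XRN1-null line, made by CRISPR/Cas9 with 1 guide RNA against a coding exon of XRN1. A difference between the genotypes therefore cannot be told apart from a difference between these cell lines. The cells had grown for 24 h on 15 cm dishes and gave 4 RNA-Seq libraries (mRNA abundance) and 4 Ribo-Seq libraries (ribosome-protected fragments, RPF).

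DDX and DHX proteins bind RNA and use ATP to open duplexes or to displace bound proteins. The names come from a short stretch of the ATPase core, motif II, which reads Asp-Glu-Ala-Asp (DEAD) in the classic DDX proteins and Asp-Glu-Ala-His (DEAH) in many DHX proteins. Different members drive spliceosome rearrangement, ribosome assembly, mRNA export, translation and mRNA turnover, so most steps in the life of an RNA use at least 1 of them.

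The coding sequence of motif II shows what the names stand for, and gives an example of a stretch that 2 of the genes have in common. Each line below gives 30 bases of the sense strand from the GRCh37 genome (hg19 coordinates, GENCODE release 44), with the 12 bases of motif II in capitals.
DDX5, chr17:62499354-62499383, minus strand, DEAD: cttgtccttGATGAAGCAGATagaatgctt
DDX51, chr12:132625939-132626045, minus strand, DEAD, across a splice junction: ctgattatcGACGAGGCTGACcggatgatt
DHX35, chr20:37621003-37621032, plus strand, DEAH: atcatgctgGATGAAGCCCACgagaggacc
DHX9, chr1:182836143-182836172, plus strand, DEIH: gtaattgtaGATGAAATACATgaaagagat
DDX11, chr12:31244731-31244760, plus strand, DEAH: gtgatcatcGACGAGGCGCACaacctgatc
DDX12P, chr12:9583229-9583258, minus strand, the copy of DDX11: gtgatcatcGACGAGGCGCACaacctgatc
The stretches of DDX11 and DDX12P had 0 differences, although the genes lie far apart on chromosome 12. Of the 30 DDX genes with an annotated coding sequence, 24 held the letters DEAD somewhere in the encoded protein and 1, DDX11, held DEAH. Of the 15 DHX genes 8 held DEAH. Others held a variant, such as DEIH in DHX9.

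The RNA-Seq libraries held 33757487 to 38145433 counts and the Ribo-Seq libraries 1921641 to 4399542, the lowest being WT replicate 1. No helicase gene had fewer than 506 counts in RNA-Seq or 21 in Ribo-Seq, so a filter at 10 counts per library would have kept all 46. XRN1 itself, the targeted gene, had RPF levels of 34.4 and 49.8 CPM in the WT libraries and 22.6 and 18.4 CPM in the XRN1-null libraries. Its mRNA was higher in XRN1-null cells, at 282 and 253 CPM against 33.5 and 33.0 CPM, so the RNA-Seq count of the gene does not show the loss of XRN1. Of 6 markers of HEK293T cells, 5 were in the table, with a summed mRNA level of 442 to 507 CPM in WT and 423 to 425 CPM in XRN1-null libraries. PAX2 was not analysed here. Of 10 markers of blood, endothelial cells, fibroblasts and liver, only COL1A1 was in the table, at 13.9 and 15.4 CPM in WT and 36.9 and 37.3 CPM in XRN1-null libraries. Its part in the results below was not tested. In bulk libraries a change in the share of cells and a change in RNA per cell cannot be told apart.

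The WT replicates differed from each other across the helicase genes, and this touches every result that follows. In RNA-Seq, 41 of the 46 helicase genes (89.1%) were higher in WT replicate 2 than in WT replicate 1, against 49.9% of all genes. Their median log2 ratio of replicate 2 over replicate 1 was 0.22, from -0.33 for DDX12P to 0.64 for DDX46, a spliceosomal helicase. In Ribo-Seq, 42 of 46 (91.3%) were higher in WT replicate 2, against 49.6% of all genes, with a median of 0.36 and a range from -0.16 for DDX51 to 1.06 for DDX21, a nucleolar helicase. The XRN1-null replicates were closer together, with medians of 0.03 in RNA-Seq and 0.07 in Ribo-Seq, but 35 of 46 genes (76.1%) were higher in replicate 2 in each assay, against 47.8% of all genes in RNA-Seq and 52.1% in Ribo-Seq. Values without each WT library of the assay are therefore given for the mRNA and RPF medians and counts over the family, and for some of the genes named.

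**Figure D1:**
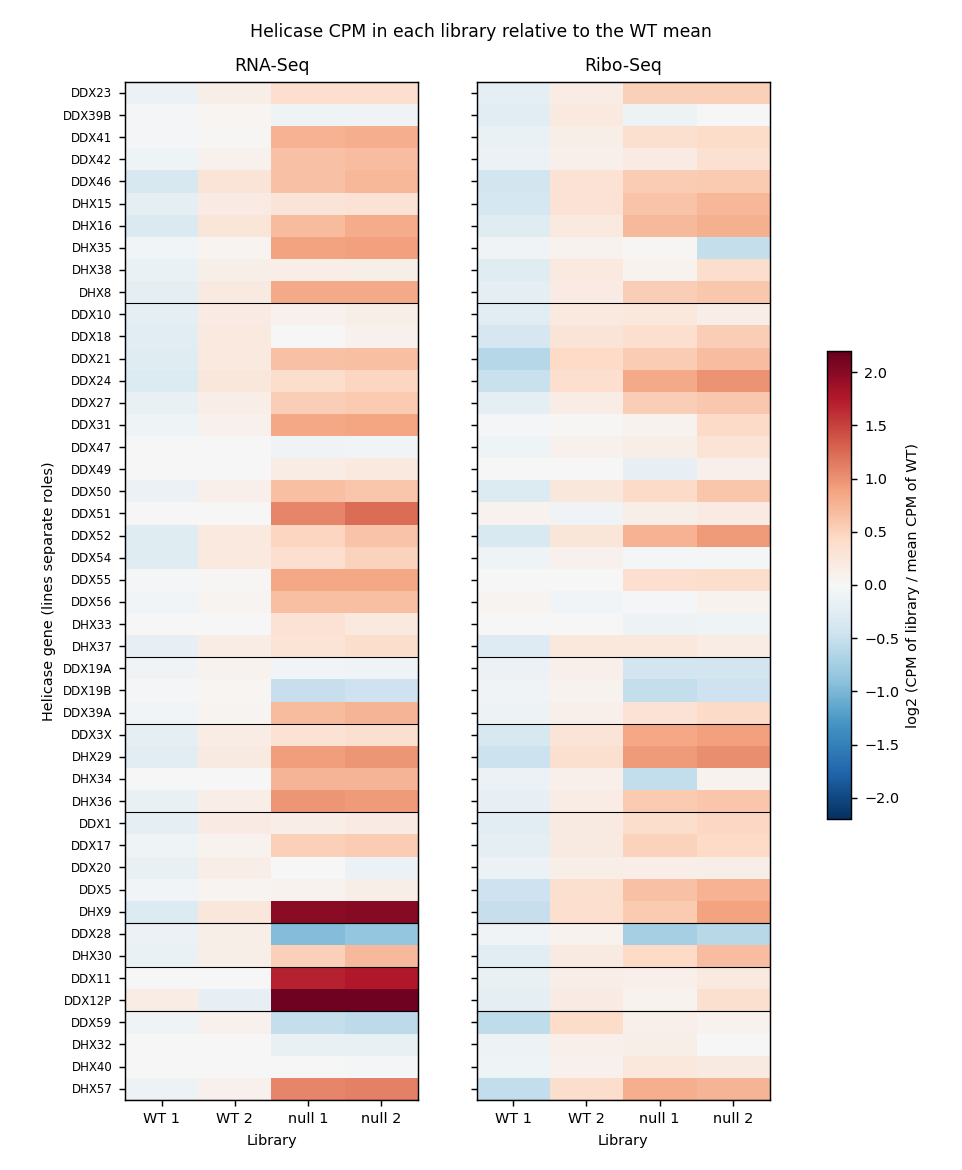
Heat map of the log2 ratio of each library's CPM over the WT mean for the 46 helicase genes (rows, grouped by role) in RNA-Seq (left) and Ribo-Seq (right), with WT and XRN1-null replicates 1 and 2 as columns. WT replicate 1 is below WT replicate 2 for 41 genes in RNA-Seq and 42 in Ribo-Seq, and the darkest red cells are the mRNA values of DHX9, DDX11 and DDX12P in XRN1-null libraries.

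Levels of different genes are compared here only as CPM per kilobase of the gene width in the count table. In WT cells the median mRNA level of the helicase genes was 22.4 CPM per kb, against 15.0 over all genes. DDX39B, a helicase of splicing and of the export complex TREX, had the highest WT mRNA level, 187 ± 7.53 CPM per kb (SD, n = 2). It was followed by the transcription coregulators DDX5 (95 ± 5.58) and DDX17 (77.5 ± 6.36), by DDX1 (63.7 ± 12.3), a subunit of the tRNA ligase complex, and by DDX39A (61.6 ± 3.37), the close relative of DDX39B. The first 3 places were separated by more than the SDs, whereas DDX1 and DDX39A differed by less than theirs. The lowest levels were those of the spliceosomal DHX35 (5.61 ± 0.305), of DDX12P (4.68 ± 0.763) and of the nucleolar DDX31 (4.67 ± 0.427), and those of DDX12P and DDX31 did not differ beyond their spread. In XRN1-null cells the order changed at its top. DHX9, a nuclear helicase of double-stranded RNA and RNA-DNA hybrids, moved from rank 11 of 46 (49.4 ± 13.2 CPM per kb) to rank 1 (198 ± 1.90), above DDX39B (176 ± 1.79).

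**Figure D2:**
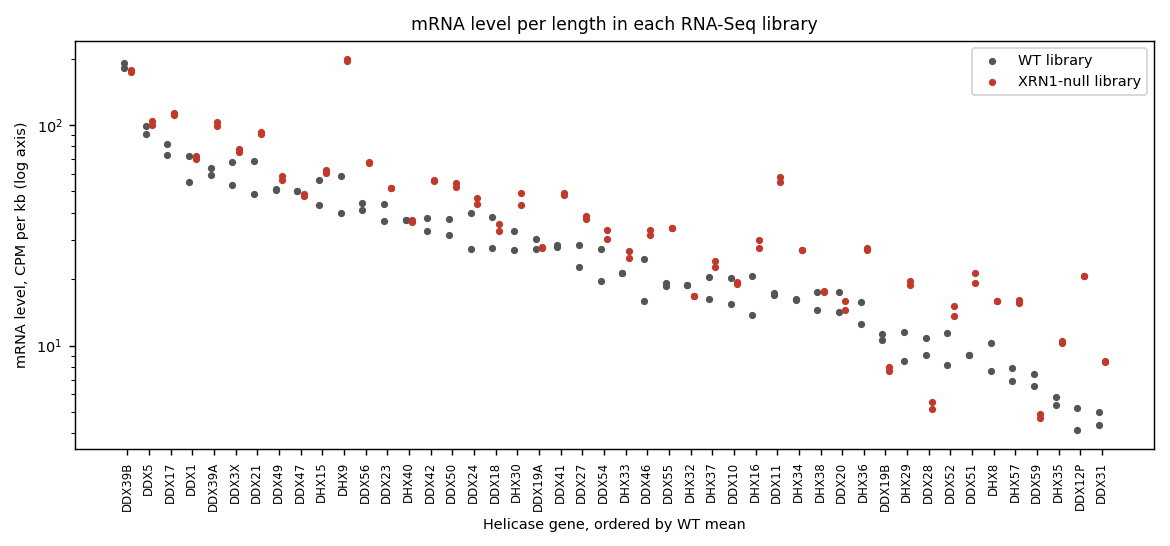
mRNA level of the 46 helicase genes in CPM per kb on a log axis, with 1 point per RNA-Seq library, WT and XRN1-null side by side and genes ordered by their WT mean. DHX9 stands at 198 CPM per kb in XRN1-null libraries, above every other helicase gene.

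The ratio of RPF to mRNA within WT cells differed widely between helicase genes, around a median of 1.03. DDX19B, which remodels mRNA-protein complexes at the nuclear pore, had the highest ratio at 4.08, with a range of 3.73 to 4.45 over the 4 pairings of WT libraries. The next values were 1.80 for DDX12P and 1.66 for DDX1. The lowest ratios were 0.498 for DDX41 and 0.520 for DDX23, both spliceosomal helicases, and 0.532 for DHX37, which acts in small-subunit assembly. Their ranges over the pairings (0.445 to 0.552, 0.418 to 0.641 and 0.391 to 0.711) overlapped each other and lay below that of DDX19B. In XRN1-null cells the ratio of DDX19B was 4.06.

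Helicase mRNAs were more often higher than lower in XRN1-null cells. At an FDR below 0.005 from edgeR's quasi-likelihood test, 22 of the 46 genes (47.8%) rose, against 22.9% of all genes tested. Only 3 (6.52%) fell, against 23.2% of all genes, and 21 passed in neither direction. The median log2 fold change (XRN1-null over WT) was 0.54, against -0.02 over all genes. In 33 helicase genes both XRN1-null libraries lay above both WT libraries (71.7%, background 41.0%), in 6 they lay below (background 43.7%), and in 7 the groups overlapped. Standard errors of the log2 fold changes ranged from 0.0604 to 0.178, with a median of 0.0917.

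Both name groups showed this imbalance. Among the 31 DDX genes 13 rose (41.9%, background 22.9%) and 3 fell (background 23.2%), with a median log2 fold change of 0.44. Among the 15 DHX genes 9 rose (60.0%) and 0 fell, against the same backgrounds, with a median of 0.75. The difference between the name groups was not tested. Without WT RNA-Seq replicate 1 the median over the 46 genes was 0.385, and without WT RNA-Seq replicate 2 it was 0.720. In these fits 31 (67.4%, background 31.6%) and 37 (80.4%, background 33.7%) genes passed as higher. The spread then came from the XRN1-null pair alone, which lay closer together, so these counts do not bear on the stability of the calls. Of the 46 log2 fold changes 37 were above 0 (80.4%, background 48.8%), and 36 and 39 were so without WT replicate 1 and without WT replicate 2.

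**Figure D3:**
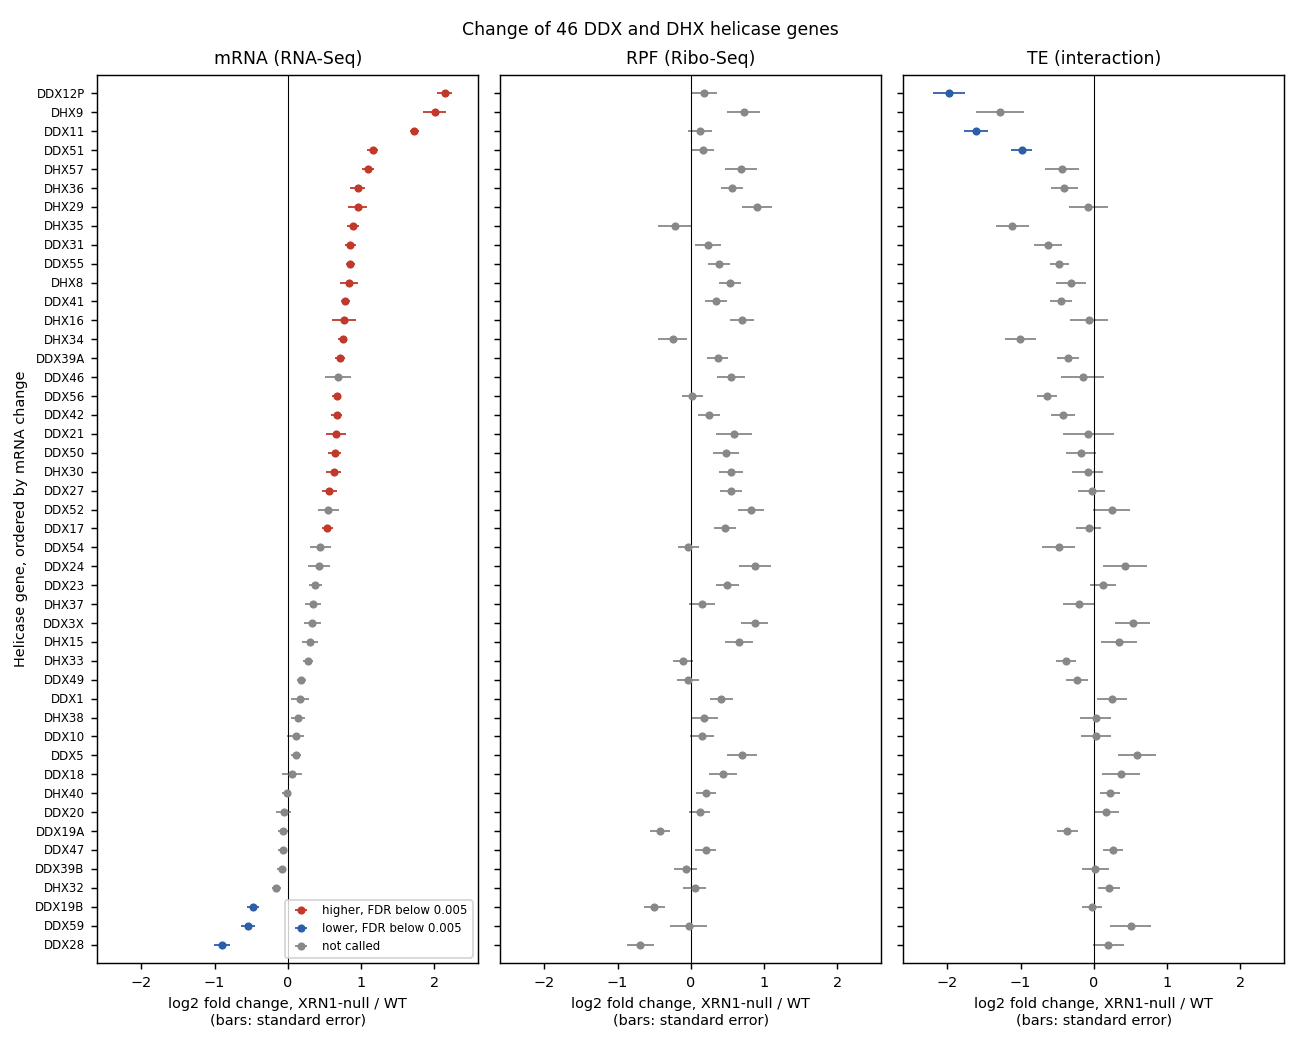
Log2 fold change (XRN1-null over WT) of the 46 helicase genes for mRNA, RPF and TE (ratio of RPF to mRNA), with standard errors as bars and genes ordered by the mRNA change; colours mark genes called at an FDR below 0.005. The mRNA panel holds 22 higher and 3 lower genes, the RPF panel none, and the TE panel 3 lower genes.

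Of the 10 spliceosomal helicases, 5 rose in mRNA (50.0%, background 22.9%), 0 fell (background 23.2%) and 5 did not pass, with a median log2 fold change of 0.67. These enzymes drive the successive remodelling steps of the spliceosome. DHX35, found in the catalytically active spliceosome, had 18 and 19.5 CPM in WT and 34.5 and 35.0 CPM in XRN1-null libraries. The groups were far apart, with a log2 fold change of 0.89 (SE 0.0787, FDR = 6.8e-05). DDX41 rose from 76.5 and 78.4 to 132 and 135 CPM (0.79, SE 0.0618, FDR = 4.1e-05). The other spliceosomal genes that rose were DHX8 (0.83), which releases spliced mRNA, DHX16 (0.76), which acts before the first catalytic step, and DDX42 (0.66), a partner of the U2 snRNP. DHX16 spread widely in WT, at 47.5 and 71.2 CPM, against 96.3 and 104 CPM in XRN1-null libraries, and lost its call with DESeq2 (FDR = 0.0112) and without XRN1-null RNA-Seq replicate 2 (FDR = 0.00578). Its log2 fold change was 0.52 without WT RNA-Seq replicate 1 and 1.08 without WT RNA-Seq replicate 2. DDX23, a component of the U5 snRNP, had 120.0 and 143 CPM in WT and 170 and 170 CPM in XRN1-null libraries and missed the threshold (0.37, FDR = 0.00735). DDX39B, at 393 and 415 against 378 and 383 CPM, gave -0.09 (FDR = 0.256).

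Of the 16 helicases of ribosome biogenesis, 7 rose (43.8%, background 22.9%), 0 fell (background 23.2%) and 9 did not pass, with a median of 0.50. DDX51, which acts in maturation of the large-subunit ribosomal RNA, showed the largest change of them. It had 42.8 CPM in each WT library and 90.5 and 100.4 CPM in the XRN1-null libraries, a log2 fold change of 1.16 (SE 0.0736, FDR = 1.8e-05). The WT libraries were nearly equal, and both XRN1-null libraries lay far above them. The nucleolar paralogs DDX21 and DDX50 gave 0.65 and 0.64. DDX21 stood at 245 and 343 CPM in WT and 458 and 468 CPM in XRN1-null libraries (SE 0.139, FDR = 0.00427), and DDX50 at 80.5 and 94.7 against 139 and 134 CPM (SE 0.0868, FDR = 0.000477). Without WT RNA-Seq replicate 1 the log2 fold change of DDX21 was 0.45, and without replicate 2 it was 0.91. DDX21 lost its call when either XRN1-null library was left out (FDR up to 0.00833), and DDX50 kept it. DDX31 (0.85), DDX55 (0.85), DDX56 (0.66) and DDX27 (0.56) also rose, and DDX27 lost its call without XRN1-null RNA-Seq replicate 2 (FDR = 0.00683). DHX37, with 74.0 and 93.3 CPM in WT and 103 and 110 CPM in XRN1-null libraries, gave 0.35 (FDR = 0.0222).

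The 3 helicases of mRNA export moved in different directions. DDX39A, at 91.2 and 98.6 CPM in WT and 153 and 159 CPM in XRN1-null libraries, rose by 0.72 (SE 0.0684, FDR = 9.4e-05). DDX19B fell by 0.48 on the log2 scale (SE 0.0821, FDR = 0.00145), from 24.8 and 26.5 to 18 and 18.7 CPM. It lost the call when either XRN1-null library was left out (FDR up to 0.0160). Its paralog DDX19A had 91.8 and 102 CPM in WT and 93.1 and 92.0 CPM in XRN1-null libraries, which overlapped (-0.06, FDR = 0.462). DDX19A and DDX19B share 29.5% and 26.3% of the 30-base stretches of their reference transcripts, and 66.1% and 45.5% of them occur in any other gene, mainly in ENSG00000260537 on the same strand. The counts of both genes, and with them the high RPF-to-mRNA ratio of DDX19B, are uncertain by the reads that fit several genes. The pairs DDX5 and DDX17, DDX21 and DDX50, and DDX39A and DDX39B shared none.

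In the group of translation, mRNA surveillance and G-quadruplex RNA, 3 of 4 genes rose (background 22.9%), with a median of 0.85. DHX36, which unwinds G-quadruplexes, had 45.3 and 56.7 CPM in WT and 99.7 and 97.7 CPM in XRN1-null libraries (0.95, SE 0.103, FDR = 0.000165). DHX29, which helps the small ribosomal subunit to scan structured 5′ leaders, had 37.9 and 51.4 against 84.5 and 88.0 CPM (0.95, SE 0.129, FDR = 0.000464). DHX34, a factor of nonsense-mediated decay, rose by 0.75. DDX3X, which supports translation of mRNAs with structured leaders, had 359 and 461 CPM in WT and 510 and 524 CPM in XRN1-null libraries and did not pass (0.34, FDR = 0.0287).

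DHX9, in the group of transcription, microRNA and RNP assembly, showed the largest mRNA rise of all helicase genes apart from DDX12P. It had 187 and 274 CPM in the WT libraries and 917 and 930 CPM in the XRN1-null libraries, a 4.0-fold difference of the means. The log2 fold change was 2.00 (SE 0.159, FDR = 4.3e-05) and stayed between 1.77 and 2.30 whichever library was left out. DHX9 lies on chromosome 1 (182808482 to 182857117, plus strand, GRCh37). In the annotation 110 of its 5898 exonic bases overlap DHX9-AS1 on the other strand, and 13.2% of its 30-base stretches also occur in other genes, mainly in the pseudogene DHX9P1. The sources used here do not state strand-specific counting, so reads of DHX9 and DHX9-AS1 in the overlap cannot be told apart.

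Of the 4 other genes for transcription, microRNA processing and RNP assembly, only DDX17 rose. It had 350 and 393 CPM in WT and 532 and 545 CPM in XRN1-null libraries, a log2 fold change of 0.54 (SE 0.0741, FDR = 0.000522), and lost the call when either XRN1-null library was left out. Its paralog DDX5 had 416 and 453 against 461 and 476 CPM (0.11, FDR = 0.192), and DDX1 had 151 and 199 against 193 and 198 CPM (0.16, FDR = 0.251). The fourth, DDX20, a component of the SMN complex, gave -0.06.

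The mitochondrial helicases changed in opposite directions. DDX28, which acts in assembly of the mitochondrial ribosome, showed the largest fall of all helicase genes, from 23.5 and 28.2 CPM to 13.4 and 14.4 CPM. Its log2 fold change was -0.90 (SE 0.109, FDR = 0.00028) and stayed between -1.0 and -0.76 whichever library was left out. DDX28 is a single-exon gene on chromosome 16 (68054819 to 68057135, minus strand) and shares no 30-base stretch with other genes. DHX30, which binds mitochondrial transcripts, rose by 0.62 and lost its call without XRN1-null RNA-Seq replicate 2 (FDR = 0.00833).

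Of the 4 genes of other or little known function, DHX57 rose from 33.4 and 38.4 to 75.3 and 77.7 CPM (1.09, SE 0.0806, FDR = 3.1e-05). DDX59 fell from 18.2 and 20.6 to 13.5 and 13 CPM (-0.55, SE 0.0979, FDR = 0.00180), and this call was lost when either XRN1-null library was left out (FDR up to 0.0131). DHX32 and DHX40 gave -0.16 and -0.02.

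DDX11, a DNA helicase of sister chromatid cohesion, and its pseudogene copy DDX12P had the same direction. DDX11 mRNA was 67.9 and 66.5 CPM in WT and 217 and 228 CPM in XRN1-null libraries (1.73, SE 0.0651, FDR = 3.1e-06). For DDX12P the values were 20.4 and 16.2 against 80.9 and 80.8 CPM (2.14, SE 0.104, FDR = 7.1e-06). The 2 genes are not independent observations. Of the 30-base stretches of the DDX11 reference transcript 42.7% occur in DDX12P, 59.4% of those of DDX12P occur in DDX11, and 46.1% and 60.9% occur in a further copy, DDX12B. How the authors' counting divided reads among them is not given in the sources used here. Counts per gene also do not show where along a transcript the reads lie.

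Sharing of 30-base stretches with other genes differed across the family. Of the 46 genes, 20 had none in another gene, 15 had at least 5% and 8 at least 25%. The 8 genes were DDX11, DDX12P, DDX19A, DDX19B, DDX50, DHX40, DDX39B and DDX47. All stretches of DDX39B, which had the highest WT level, occur in the readthrough gene ATP6V1G2-DDX39B, and 99.7% of those of DDX47 occur in APOLD1 as annotated. The exons of 7 genes overlapped those of a gene on the same strand. The exons of 20 genes overlapped those of a gene on the other strand, by 10 to 1036 bases. Transcripts annotated as targets of nonsense-mediated decay were listed for 31 helicase genes (67.4%, against 48.8% of the 10052 genes matched to the annotation), and transcripts with a retained intron for 39 (84.8%, against 61.6%). Helicase genes had more annotated transcripts per gene, with a median of 10.5 against 8.0, and these shares were not adjusted for that. Among the 22 genes that rose, 15 had an annotated nonsense-mediated decay transcript, and among the other 24, 16 had one. For retained introns the numbers were 18 and 21. DHX9 had neither class, DDX51 had 5 retained-intron transcripts, and DDX11 had 8 of the first and 11 of the second class among 30 transcripts.

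At the level of ribosome footprints no helicase gene passed an FDR of 0.005 with edgeR's quasi-likelihood test, against 0.633% of all genes that passed as higher and 1.14% as lower. At an unadjusted p below 0.05, 23 were higher (50.0%, background 16.2%) and 3 lower (6.52%, background 16.8%). At the same FDR DESeq2 called 1 higher (0.930% of all genes with that test) and edgeR's exact test 6 higher (4.44% of all genes). At an FDR below 0.05, 12 were higher (26.1%, background 7.07%) and 2 lower (4.35%, background 8.38%). Both XRN1-null libraries lay above both WT libraries in 29 genes (63.0%, background 32.1%) and below them in 4 (8.70%, background 32.3%). The median log2 fold change was 0.295, against -0.003 over all genes, and standard errors were larger than for mRNA, with a median of 0.160. Without WT Ribo-Seq replicate 1, the shallowest library, the median was 0.200, and 11 genes passed as higher (23.9%, background 5.82%) and 4 as lower (8.70%, background 7.0%). Without WT Ribo-Seq replicate 2 it was 0.503, and 21 passed as higher (45.7%, background 12.7%) and 0 as lower (background 10.8%). The lone WT library was taken to vary like the XRN1-null libraries here, so these counts do not bear on stability either.

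DHX29 and DDX3X, both active in translation, were among the genes with the highest RPF differences. DHX29 had 33.9 and 60.6 CPM in WT and 90.6 and 95.8 CPM in XRN1-null libraries (log2 fold change 0.90, SE 0.204, FDR = 0.0141). For DDX3X the RPF levels were 242 and 379 CPM in WT and 561 and 582 CPM in XRN1-null libraries (0.87, SE 0.182, FDR = 0.0109). DDX3X was the only helicase gene that DESeq2 called at an FDR below 0.005. Of the nucleolar helicases, DDX24 had 86.5 and 156 against 216 and 240 CPM (0.87, FDR = 0.0208) and DDX52 had 68.2 and 104 against 147 and 164 CPM (0.82, FDR = 0.0134). DDX5 stood at 402 and 705 CPM in WT and 862 and 946 CPM in XRN1-null libraries (0.70, FDR = 0.0406). The FDR of DDX5 depended on the test, at 0.307 with DESeq2 and 0.0139 with edgeR's exact test. In each of these genes both XRN1-null values lay above both WT values, and WT replicate 2 lay above WT replicate 1. Their sizes therefore depended on the WT library. Without WT Ribo-Seq replicate 1 the RPF log2 fold changes were 0.62 for DHX29, 0.60 for DDX3X, 0.54 for DDX24, 0.58 for DDX52 and 0.36 for DDX5. Without WT Ribo-Seq replicate 2 they were 1.47, 1.25, 1.40, 1.20 and 1.18 in the same order.

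The others that were higher at an FDR below 0.05 were DHX16 (0.70), DHX15 (0.66), DHX36 (0.56), DHX30 (0.55), DDX27 (0.54), DHX8 (0.54) and DDX23 (0.50). Their RPF log2 fold changes lay between 0.36 and 0.53 without WT Ribo-Seq replicate 1 and between 0.73 and 1.08 without replicate 2. Of these 12 genes 6 had risen in mRNA and 6 had not passed there. Of the 22 genes that rose in mRNA, 20 had an RPF log2 fold change above 0. The matching share over all genes that rose is not given here, so this count shows nothing particular to helicases. The exceptions were DHX34 (-0.25) and DHX35 (-0.22). The sign of either exception turned with 1 library left out, to 0.05 for DHX34 without XRN1-null Ribo-Seq replicate 1 and to 0.01 for DHX35 without XRN1-null Ribo-Seq replicate 2. DDX56, counted among the 20 at 0.020, also turned. It was -0.029 without WT Ribo-Seq replicate 2 and -0.037 without XRN1-null Ribo-Seq replicate 2. The 2 genes that were lower in RPF at an FDR below 0.05 had fallen in mRNA too. DDX28 had 26.0 and 29.2 CPM in WT and 16.6 and 18.1 CPM in XRN1-null libraries (-0.69, FDR = 0.0266). DDX19B had 99.0 and 110 against 72.8 and 76.5 CPM (-0.50, FDR = 0.0337). The third gene with lower mRNA, DDX59, had 10.9 and 21.1 CPM in WT and 17.4 and 16.9 CPM in XRN1-null libraries, where the WT values enclosed the others.

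**Figure D4:**
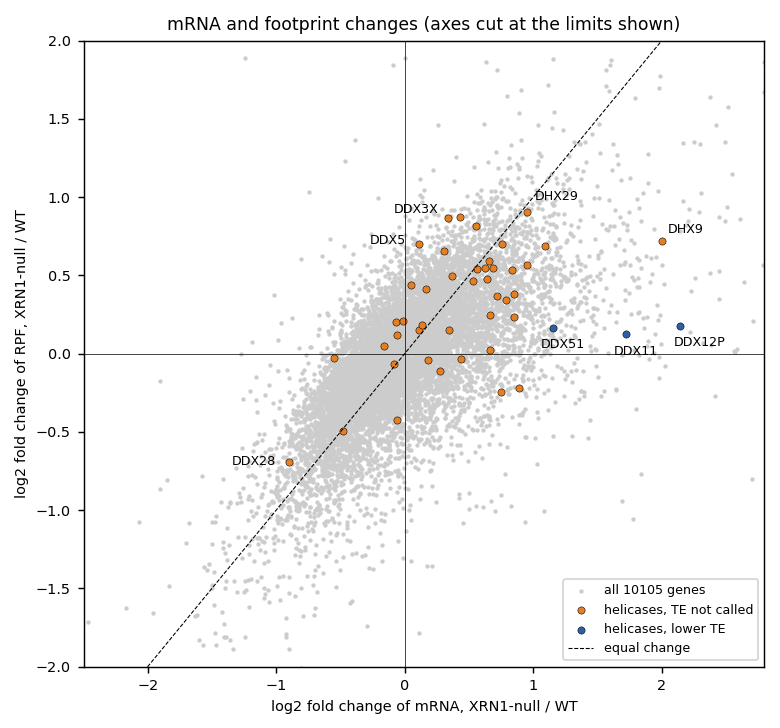
Log2 fold change (XRN1-null over WT) of RPF against that of mRNA, with all 10105 genes in grey, the 46 helicase genes in colour and the dashed line marking equal change. DDX11, DDX12P and DDX51 lie below the line with TE log2 fold changes of -1.61, -1.98 and -0.99, and DHX9 lies below it at -1.29 without passing the threshold.

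The change of the RPF-to-mRNA ratio, called translational efficiency (TE), was tested as an interaction term in 1 fit over both assays. It passed an FDR of 0.005 as lower for 3 helicase genes (6.52%, background 1.78%) and as higher for 0 (background 0.0495%). The share of lower genes counts both DDX11 and its pseudogene copy DDX12P, which are not independent observations. The genes with lower TE were DDX11 (-1.61, SE 0.161, FDR = 0.000144), DDX12P (-1.98, SE 0.216, FDR = 0.000257) and DDX51 (-0.99, SE 0.147, FDR = 0.00194). At an unadjusted p below 0.05 edgeR gave 2 higher (background 8.76%) and 15 lower genes (32.6%, background 14.6%), and at an FDR below 0.05 it gave 0 higher (background 1.02%) and 7 lower (15.2%, background 6.46%). DESeq2 gave 0 higher and 6 lower at an FDR below 0.005, where it called 0.0693% and 3.19% of all genes. The median over the 46 genes was -0.08, against 0.01 over all genes, and moved from -0.315 without WT RNA-Seq replicate 2 to 0.198 without WT Ribo-Seq replicate 2, so it has no stable sign.

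DDX51 footprints stayed in a narrow range while its mRNA rose. They were 49.0 and 43.9 CPM in WT and 50.7 and 52.4 CPM in XRN1-null libraries (0.17, SE 0.148, FDR = 0.461). The ratio of RPF to mRNA was 1.09 in WT, with pairings of 1.03 to 1.14, and 0.540 in XRN1-null cells, with pairings of 0.505 to 0.579. The ranges did not overlap. The TE call of DDX51 was lost at the depth of Ribo-Seq, to which the mRNA counts were thinned (FDR = 0.00863) and without any one of 5 libraries, namely XRN1-null RNA-Seq replicate 1 or 2, WT Ribo-Seq replicate 2 and XRN1-null Ribo-Seq replicate 1 or 2 (FDR up to 0.0280), while its log2 fold change stayed between -1.07 and -0.89.

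For DDX11, RPF levels of 37.5 and 46.2 CPM in WT and 44.9 and 48.4 CPM in XRN1-null libraries overlapped, and so did those of DDX12P, at 28.6 and 37 against 34.8 and 42.1 CPM. The ratio of RPF to mRNA was 0.623 in WT and 0.210 in XRN1-null cells for DDX11 and 1.80 and 0.476 for DDX12P. DDX12P is annotated as a pseudogene without a coding sequence, and footprints from the stretches it shares with DDX11 or other copies (71.4% of its 30-base stretches) cannot be assigned to 1 gene. Leaving out XRN1-null Ribo-Seq replicate 1 ended both calls (FDR = 0.00689 and 0.00990), and leaving out WT Ribo-Seq replicate 2 ended that of DDX12P. Without any one library the TE log2 fold change ranged from -1.71 to -1.40 for DDX11 and from -2.19 to -1.72 for DDX12P.

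DHX9 footprints were 219 and 403 CPM in WT and 463 and 574 CPM in XRN1-null libraries. All XRN1-null values lay above the WT values. The RPF log2 fold change was 0.72 (SE 0.227, FDR = 0.0502), beside an mRNA log2 fold change of 2.00. It was 0.36 without WT Ribo-Seq replicate 1 and 1.25 without WT Ribo-Seq replicate 2. The interaction term, the TE log2 fold change, was -1.29 (SE 0.327) and missed the threshold (FDR = 0.0336). The ratio of RPF to mRNA was 1.35 in WT and 0.562 in XRN1-null cells, and the range over the WT pairings was wide, from 0.798 to 2.15. Both ends of that range joined libraries with different replicate numbers. Without WT Ribo-Seq replicate 1 the TE log2 fold change of DHX9 was -1.64, and without WT Ribo-Seq replicate 2 it was -0.75. Whichever other library was left out, it stayed between -1.59 and -1.06. Lower TE at an FDR below 0.05 was also found for DHX35 (-1.11, FDR = 0.0133), DHX34 (-1.0, FDR = 0.0128) and DDX56 (-0.64, FDR = 0.0156), a nucleolar helicase. Each of these values, like that of DHX9, missed an FDR of 0.05 in some fits without 1 library. The FDR reached 0.0900 for DHX35 without WT Ribo-Seq replicate 2 and 0.0636 without XRN1-null Ribo-Seq replicate 2. For DHX34 it was 0.0737 without WT Ribo-Seq replicate 2 and 0.0785 without XRN1-null Ribo-Seq replicate 1. For DDX56 it was 0.0512 to 0.108 without any one of the XRN1-null libraries of either assay.

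**Figure D5:**
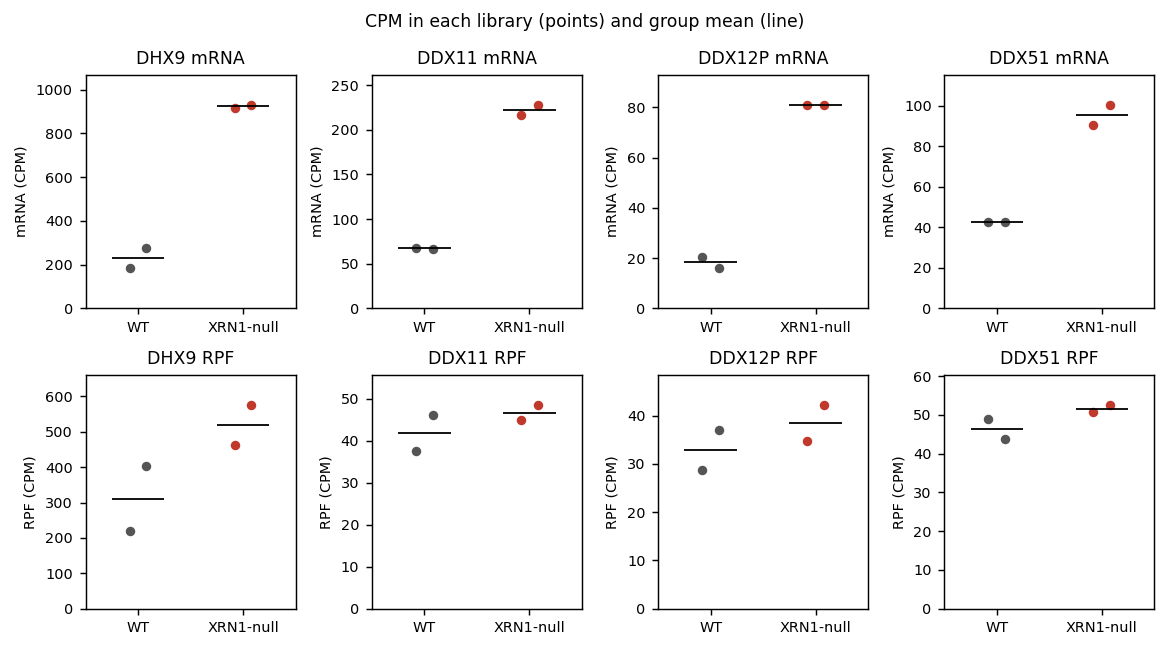
CPM of DHX9, DDX11, DDX12P and DDX51 in each library (points) with the group mean (line), mRNA in the upper row and RPF in the lower row; each panel has its own axis from 0. In the mRNA panels the genotypes are far apart, for DHX9 at 187 and 274 against 917 and 930 CPM, whereas the RPF values of DDX11 and DDX12P overlap between genotypes.

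The following lists of related genes were drawn up with earlier results of these data known. RNA helicases with other names were also more often higher than lower in mRNA. Of 19 listed genes 17 were in the table, and 12 rose (70.6%, background 22.9%) and 0 fell (background 23.2%), with a median log2 fold change of 0.70. The largest rises were those of YTHDC2 (1.47), an m6A reader, and UPF1 (1.23), the central helicase of nonsense-mediated decay. EIF4A2 and MOV10 passed in RPF as well (11.8% of the list, background 0.633%). EIF4A2, a translation initiation helicase, had RPF levels of 195 and 225 CPM in WT and 387 and 360 CPM in XRN1-null libraries (0.83, FDR = 0.00465), and MOV10 had 27.6 and 36.5 against 61.3 and 68.0 CPM (0.96). Both FDRs lay just under the threshold, and alternative fits are not given here for the genes of this list. No gene of this list passed in TE at an FDR below 0.005.

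Proteins that partner with these helicases, such as G-patch proteins, export adaptors and Gemins, were measured for 31 of 32 listed genes, and 11 rose (35.5%, background 22.9%) and 3 fell (background 23.2%) in mRNA, with a median of 0.32. GPATCH8 (1.73) and the splicing regulator RBM5 (1.70) rose most, and the splicing factor RBM17 (-0.50) and the G-patch protein AGGF1 (-0.49) fell most. RBM5 was the only gene of the list with a TE call (-1.04, FDR = 0.00129). Its mRNA was 64.2 and 62.6 CPM in WT and 202 and 211 CPM in XRN1-null libraries, while its RPF levels were 38 and 40.4 against 63.8 and 61.2 CPM.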

How the data were processed

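RNA-Seq and Ribo-Seq libraries of WT and XRN1-null HEK293T cells were grouped by their labels. Per the methods, the authors filtered out ribosomal RNA reads (Bowtie2), aligned the remainder to hg19 (Tophat2), kept footprints of 29 and 30 nt, and deposited raw counts per gene (QuasR) for genes above an FPKM of 2, with a gene width in bases from an annotation that is not given in the sources used here. The deposited fold changes, p-values and TE ratios of the authors' own comparisons were not used.

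Counts were analysed with edgeR 4.0.16 in R 4.3.3. TMM factors were computed within each assay, and CPM are counts per 1 M of the scaled total. The quasi-likelihood test was fitted with genotype as the only term for mRNA and for RPF, and with assay, genotype and their interaction over all 8 libraries for TE. P-values were adjusted by Benjamini-Hochberg over all 10105 genes, with a threshold of FDR below 0.005 for a call. Values above are log2 fold changes of XRN1-null over WT unless another quantity is named. SE was obtained from the log2 fold change and the F statistic. Replicate ratios had 0.5 CPM added. With 2 replicates per group an exact permutation test of 1 value cannot go below p = 0.333 and was not used. Intervals and standard errors cover these samples only.

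The helicases and lists were chosen with earlier results of these data known. Named in full were helicases called in RPF or TE, the 8 largest rises and the falls among mRNA calls, the highest (5) and lowest (3) WT levels, the 3 highest and 3 lowest WT ratios of RPF to mRNA, and paralog pairs. Helicases with RPF or TE at an FDR below 0.05 were added after their values were seen. Tested alternatives were RLE factors, library totals, DESeq2 1.42.0, the exact test, a minimum of 10 counts, blocks by replicate number, thinned RNA-Seq counts and leaving out each library. Scripts were tested on simulated data. Positions, transcript classes and sequences came from GENCODE release 44 on GRCh37, where 10052 genes (99.5%) were found, 500 through a synonym. Stretches shared between genes were counted as exact matches of 30 bases in reference transcripts.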

Additional observations from a re-analysis of the deposited data

Results flagged for a closer look

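Footprints and mRNA of 3 helicase genes changed by different amounts between WT and XRN1-null cells, by the test of the difference itself (the interaction of assay and genotype, edgeR's quasi-likelihood test, adjusted over all genes). The TE log2 fold change was -1.61 for DDX11, -1.98 for DDX12P and -0.99 for DDX51. DDX11 and DDX12P share part of their 30-base stretches, so their TE changes are not separate observations. None of the 3 passed without XRN1-null Ribo-Seq replicate 1, and only DDX11 passed without WT Ribo-Seq replicate 2. DDX51 passed in 9 of 15 alternative settings.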

How the results depend on the processing

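RLE factors, library totals and a minimum of 10 counts changed the number of called helicase genes by less than 1.5 times in mRNA, RPF and TE. None of the 25 mRNA calls was lost under these settings, under the exact test or with thinned counts. Without a WT library the spread came from the XRN1-null pair alone, so keeping all calls there says nothing about stability. DESeq2 lost that of DHX16, and leaving out an XRN1-null library lost 4 (replicate 1) or 7 (replicate 2) calls. Without 1 library the number of higher mRNAs ranged from 17 to 37 and of lower mRNAs from 1 to 3. In RPF, the number of higher genes was 1 with DESeq2, 6 with the exact test, 12 at an FDR below 0.05 and 0 to 21 without 1 library, and that of lower genes was 2 at an FDR below 0.05 and 0 to 4 without 1 library. In TE, the number of higher genes was 0 to 1 without 1 library, and that of lower genes was 6 with DESeq2, 7 at an FDR below 0.05 and 0 to 4 without 1 library. The cause of these differences was not tested. Replicate numbers do not show a shared preparation, and libraries with the same number deviated from their group means with an r of 0.190 in RNA-Seq and 0.0803 in Ribo-Seq, across genes and over only 2 pairs. Between RNA-Seq and Ribo-Seq of the same genotype r was 0.355 in WT and 0.0326 in XRN1-null cells. With a replicate block 15 genes were higher in RPF (6.10% of all genes), 5 were lower in TE (1.88%) and 31 were higher in mRNA (28.3%). With a culture replicate block, which ties the RNA-Seq and Ribo-Seq library of the same number, 1 was higher in TE (DDX3X, 0.544% of all genes) and 7 were lower (4.30%). The TE change of DHX9 passed in both block fits (FDR = 0.00288 and 1.3e-06) at log2 fold changes of -1.25 in each. No mRNA log2 fold change called in mRNA changed sign under any of these alternatives. Neither did any TE or RPF log2 fold change at an FDR below 0.05. RPF values that missed this FDR did, such as those of DHX34, DHX35 and DDX56. The lowest Ribo-Seq value was 21 counts, and the part of depth in the RPF counts of calls was not tested.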
